A study of Danio rerio with 6 samples.

Results

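The genes described here are the extracellular and cell-surface metalloproteases of the MMP, ADAM and ADAMTS families, their TIMP inhibitors, and the cathepsins of the zebrafish. The genes were taken by symbol, with earlier results of these data known. They were every gene whose symbol starts with mmp, timp or adam and a number, with adamts, or with cts and a further letter. The choice gave 77 of the 31701 genes counted, of which 59 were metalloproteases or TIMPs (20 MMPs, 5 TIMPs, 15 ADAMs and 19 ADAMTSs) and 18 were cathepsins. RNA was measured in the apical part of the ventricle of adult AB fish at 7 days post amputation (dpa). Control fish carried the TRE3G:tbx20-E2A-mCherry responder (lens marker cryaa:EGFP) without a driver. In tbx20-overexpressing fish the responder was combined with cmlc2:TetON-3G (lens marker cryaa:mCherry), and both groups received doxycycline (DOX) daily, starting 1 day before the injury. The cmlc2 promoter is active in cardiomyocytes, so the transgene was directed to these cells while the RNA came from the whole tissue piece. The driver was present in 1 group only, so its own effect and that of tbx20 cannot be told apart. Each group had 3 libraries, and each library was a pool of hearts from different fish (6 in replicate 1, 8 in replicates 2 and 3).

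MMPs cleave collagens and other matrix proteins. Most are secreted as inactive precursors, and the TIMPs block their active site. ADAMs are membrane proteins that mostly release the outer part of other membrane proteins, such as growth factors and receptors, although some have no active site. ADAMTSs are secreted and cut proteoglycans or process procollagen, whereas the ADAMTS-like proteins (adamtsl genes) have no protease domain and are members by name only. Cathepsins are mostly proteases of the lysosome and are abundant in macrophages, and several can also degrade matrix when they are released. In the injured zebrafish heart, matrix turnover and inflammatory cells are part of the response to amputation.

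Total counts ranged from 13218054 to 17754483 in control and from 12993988 to 14002211 in tbx20-overexpressing libraries. Levels are given as CPM, the count scaled to the size of the library after TMM normalization, and a log2 fold change is the tbx20-overexpressing level against the control level. tbx20 itself was at 41.3, 8.59 and 20.3 CPM in control replicates 1, 2 and 3 and at 133, 19.0 and 37.2 CPM in the tbx20-overexpressing replicates. It was higher in 3 of 3 pairs of the same replicate number, but the groups overlapped. A gene was called when edgeR's quasi-likelihood test gave an unadjusted p under 0.05 and the log2 fold change was above 0.5 or below -0.5. At an adjusted p under 0.05, edgeR called 0 of 15686 genes, the lowest adjusted value being 0.108. DESeq2 called 239 genes at this threshold, and by edgeR the unadjusted p was under 0.05 in 1448 genes. Over all tested genes, libraries of the same replicate number deviated from their group means together, so a paired fit with a replicate block is given where it changes a call. Among the genes described here this was weak for replicate 2. Cardiomyocyte markers were high in all libraries (myl7 at 5654 to 18857 CPM). Since the tissue is a mixture, fewer cells of a type and less RNA per cell cannot be told apart.

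Of the 77 genes, 58 had enough counts to be tested. The metalloproteases and TIMPs were mostly higher in tbx20-overexpressing than in control tissue, by small amounts. Only timp2b, an inhibitor, and adam8a, a protease of leukocytes, were called (edgeR, unpaired). These were 2 of the 45 tested metalloproteases and TIMPs, against 3.27% of all genes called higher. None was called lower, against 5.56% of all genes. None of the 13 tested cathepsins was called in either direction, and none had an unadjusted p under 0.05. The mean was higher in the tbx20-overexpressing group for 32 of the 45 metalloproteases and TIMPs and for 12 of the 13 cathepsins, compared with 54.3% of all genes. The median log2 fold change was 0.20 for the metalloproteases and TIMPs, 0.30 for the cathepsins and 0.04 for all genes. When libraries were scaled to their total count instead, these medians were 0.56, 0.69 and 0.38. With that scaling 14 of the 58 genes were called higher, against 11.7% of all genes, and 0 lower, against 1.64%.

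With the replicate block, 7 of the 58 genes were called higher (6 metalloproteases or TIMPs and 1 cathepsin), against 6.05% of all genes, and 0 lower, against 8.06%. They were timp2b, adam8a, mmp15a, mmp9, adam17b, adamts3 and ctss2.1. At an adjusted p under 0.05 in the paired fit, 0.108% of all genes were called higher and none of the 58. The 3 tbx20-overexpressing CPM values lay above all 3 control values for 6 of the 58 genes (timp2b, adam8a, adam10a, adam11, adamts12 and ctsa), against 6.45% of all genes. They lay below them for 1 gene, adamtsl5, against 8.27%. In all 3 pairs of the same replicate number, 21 of the 58 genes were higher, against 20.8% of all genes. In all 3 pairs 4 were lower, against 18.8%. In the deposited FPKM values, which are scaled to total counts, 12 of the 58 genes lay higher without overlap, against 19.7% of all genes, and 0 lower, against 2.95%.

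**Figure D1:**
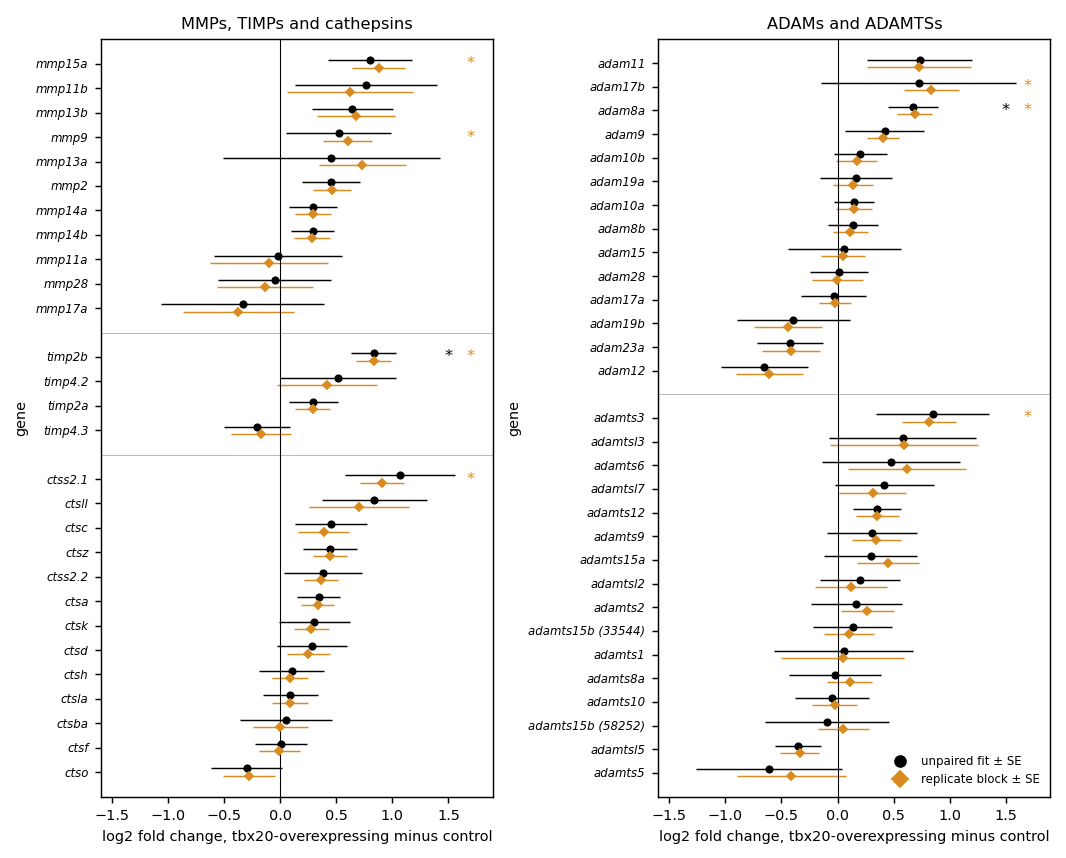
The log2 fold change (tbx20-overexpressing against control, x axis) of each tested gene (y axis), with black circles for the unpaired edgeR fit and orange diamonds for the fit with the replicate block. Bars are 1 standard error and an asterisk in the same colour marks a called gene, so black asterisks stand only beside timp2b and adam8a, and 7 genes carry an orange one. The digits after adamts15b are the last of the gene identifier.

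The sum over a family shows the amount of its transcripts in each library. The MMPs summed to 767, 1010 and 783 CPM in control and 1047, 1299 and 1090 CPM in tbx20-overexpressing replicates, so the groups did not overlap. The TIMPs summed to 227, 246 and 203 CPM in control and 286, 328 and 307 CPM in tbx20-overexpressing replicates, again without overlap. ADAM sums (551, 477 and 515 against 643, 545 and 632 CPM) and ADAMTS sums (318, 135 and 197 against 261, 216 and 229 CPM) overlapped. The cathepsin sums were 1218, 1771 and 1824 CPM in control and 1429, 1728 and 2605 CPM in tbx20-overexpressing replicates. Here 1 library, tbx20-overexpressing replicate 3, was above the rest and the other values overlapped. These sums are a description, and each is led by a few abundant genes.

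**Figure D2:**
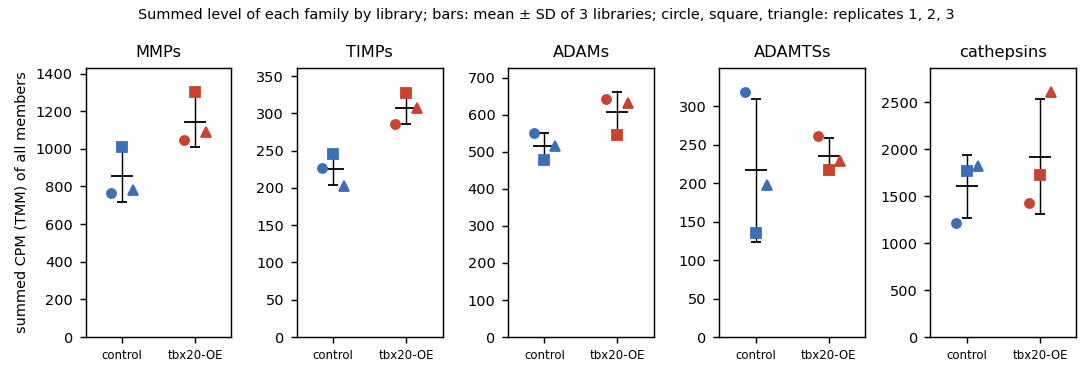
Summed CPM (y axis) of the MMPs, TIMPs, ADAMs, ADAMTSs and cathepsins in control and tbx20-overexpressing (tbx20-OE) libraries. Circles, squares and triangles are replicates 1, 2 and 3, and bars are the mean ± SD of 3 libraries. The groups are apart for MMPs (at most 1010 in control, at least 1047 in tbx20-overexpressing) and TIMPs, and overlap in the other panels.

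Among the MMPs, mmp2 (ENSDARG00000017676) was by far the most abundant. It encodes gelatinase A, which cuts gelatin and basement membrane collagen, and it made up 69.0% of the family's CPM per kilobase of exon. Its level was 485, 705 and 463 CPM in control and 696, 918 and 648 CPM in tbx20-overexpressing replicates. Each tbx20-overexpressing library exceeded the control of its number, but the highest control value lay within the other group. This gave a log2 fold change of 0.45 ± 0.26 (SE, n = 3 against 3, edgeR adjusted p = 0.69) and was not called. With total-count scaling it was 0.82 and was called, as it was by limma on log2(FPKM + 1) (0.81) and without control replicate 2 (0.66). In FPKM the groups did not overlap (147, 174 and 154 in the control and 234, 326 and 278 in the tbx20-overexpressing replicates). The same held for mmp14a, mmp14b and mmp15a, and 19.7% of all genes lay higher without overlap in FPKM. FPKM is also scaled to total counts, and with total-count scaling the median log2 fold change of all genes was 0.38.

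The membrane-type proteases mmp14a and mmp14b came next per length. Their mammalian counterpart activates the MMP2 precursor at the cell surface in a complex with TIMP2. mmp14a was at 107, 137 and 100.2 CPM in control and 116, 162 and 142 CPM in tbx20-overexpressing replicates. mmp14b was at 109.8, 127 and 114 CPM in control and 125, 141 and 164 CPM in tbx20-overexpressing replicates. Both paralogs were higher in 3 of 3 pairs with overlapping groups, and neither was called (log2 fold change 0.29 for each, with SE 0.21 for mmp14a and 0.19 for mmp14b). Both were called with total-count scaling (0.67 for mmp14a and 0.66 for mmp14b). The ratio of mmp14a to mmp14b was 1.24 ± 0.13 in control and 1.25 ± 0.19 in tbx20-overexpressing libraries (CPM per kilobase, SD, n = 3).

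mmp15a, another membrane-type protease, varied more. It was at 40.9, 14.2 and 28.7 CPM in control and 64.8, 42.8 and 38.4 CPM in tbx20-overexpressing replicates. The log2 fold change of 0.80 ± 0.37 (SE, edgeR adjusted p = 0.596) missed the call, while DESeq2 (0.79), the fit with no filter (0.80), total-count scaling (1.07) and limma on log2(FPKM + 1) (1.12) called it, as did the fit without control replicate 1 (1.18). In the paired fit it was called at 0.88 ± 0.23, with an edgeR adjusted p of 0.112 (range over all alternatives 0.0569 to 0.866). Control replicate 2 had the lowest value, and the difference within pairs was largest for that number (1.58 on the log2 scale, against 0.66 and 0.42).

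mmp9 encodes gelatinase B, which neutrophils and macrophages are known to make. Its level was 9.80, 14.01 and 32.0 CPM in control and 22.6, 17.2 and 40.5 CPM in tbx20-overexpressing replicates. Replicate 3 was the highest in both groups, so that the spread within groups was as wide as the difference between them. Unpaired, the log2 fold change was 0.52 ± 0.47 (SE, edgeR adjusted p = 0.848) and was called only when control replicate 3 was left out. With the replicate block it was 0.60 ± 0.22 and was called, at an edgeR adjusted p of 0.207 (range over all alternatives 0.053 to 1). Summed neutrophil markers (7 genes) were at 33.4, 49.3 and 65.3 CPM in control and 55.2, 29.9 and 77.1 CPM in tbx20-overexpressing replicates, also highest in replicate 3 of both groups. Of these, mpx was at 2.39 to 17.7 CPM in control and 4.78 to 16.1 CPM in tbx20-overexpressing libraries. Their part in the mmp9 level was not tested.

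mmp13a, a collagenase singled out after its values were seen, had the same pattern in a stronger form. It was at 2.88, 5.20 and 35.7 CPM in control and 13.4, 5.11 and 42.0 CPM in tbx20-overexpressing replicates. Replicate 3 stood far above the others in both groups, and the log2 fold change (0.46 ± 0.97, SE) was smaller than its error. Leaving out 1 library moved the value from -0.69 to 2.33, and mmp13a was called higher without control replicate 3. The other 5 tested MMPs (mmp13b, mmp11b, mmp17a, mmp11a and mmp28) were at 0.332 to 6.84 CPM in every library, had log2 fold changes from -0.34 to 0.76 and were not called.

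**Figure D3:**
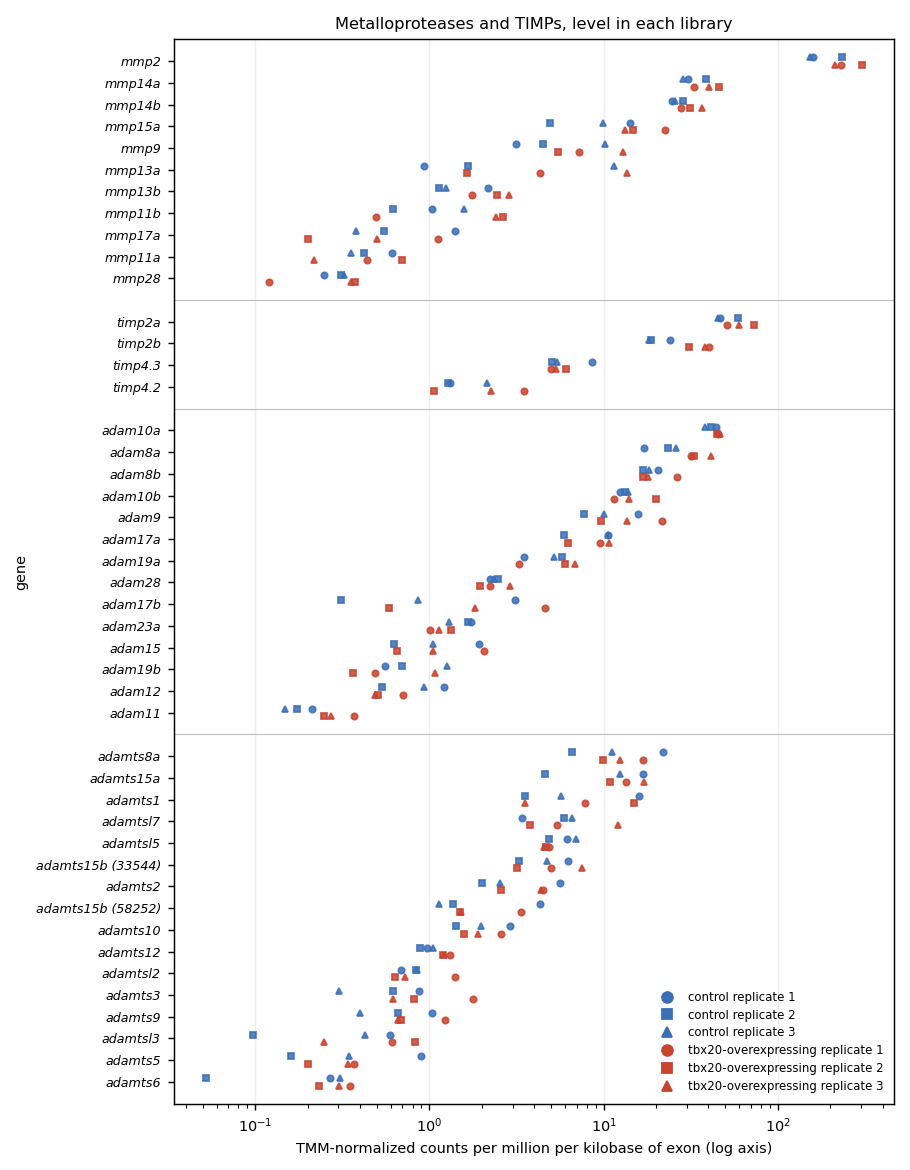
TMM-normalized CPM per kilobase of exon (x axis, log scale) of each tested metalloprotease and TIMP (y axis, by family) in each of the 6 libraries. Blue marks are control and red marks are tbx20-overexpressing, with circles, squares and triangles for replicates 1, 2 and 3. mmp2 is the highest gene, and the red marks of timp2b and adam8a lie to the right of all their blue marks.

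Of the TIMPs, timp2b (ENSDARG00000075261) was the only gene called under every alternative tried. It was at 70.8, 55.1 and 53.8 CPM in control and 118, 90.5 and 112 CPM in tbx20-overexpressing replicates. All tbx20-overexpressing libraries were above all control libraries, and the difference was similar in the 3 pairs (0.73, 0.71 and 1.05 on the log2 scale). Its log2 fold change was 0.83 ± 0.20 (SE, n = 3 against 3, edgeR adjusted p = 0.276), and the call was kept when any of the 6 libraries was left out (0.75 to 0.98). With the replicate block it was 0.83 ± 0.16, with an edgeR adjusted p of 0.0621 (range over all alternatives 0.0297 to 0.659). By DESeq2 its adjusted p was 0.0418, and it was the only member under 0.05 by that tool.

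Its paralog timp2a was the more abundant one, with 60.7% of the TIMP CPM per kilobase against 30.8% for timp2b. timp2a was at 146, 184 and 141 CPM in control and 159, 229.6 and 188 CPM in tbx20-overexpressing replicates. Its groups overlapped and it was not called (log2 fold change 0.29 ± 0.22, SE, edgeR adjusted p = 0.787), but it was called with total-count scaling (0.67). The ratio of timp2b to timp2a, per kilobase, was 0.518, 0.319 and 0.405 in the control and 0.786, 0.419 and 0.632 in the tbx20-overexpressing replicates. The ratio was higher in each of the 3 pairs, although the groups overlapped. Both genes had at least 731 counts in every library.

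The timp4 genes were low. timp4.3 was at 9.22, 5.42 and 5.79 CPM in control and 5.35, 6.57 and 5.72 CPM in tbx20-overexpressing replicates. Its log2 fold change of -0.21 ± 0.30 (SE) was smaller than its error and changed sign with total-count scaling (0.13). timp4.2 was at 0.995 to 3.28 CPM and timp4.1 had 2 counts in all 6 libraries together. The 3 are neighbours in the GRCz12tu assembly, and how the authors counted reads that match more than 1 gene is not given in the sources used here, so their separate levels are uncertain.

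Among the ADAMs, adam8a (ENSDARG00000001452) was called. ADAM8 in mammals is found on macrophages, neutrophils and other leukocytes, where it sheds surface proteins. adam8a was at 56.6, 78.0 and 86.8 CPM in control and 106, 109.8 and 138 CPM in tbx20-overexpressing replicates. The groups did not overlap, and the log2 fold change was 0.68 ± 0.22 (SE, n = 3 against 3, edgeR adjusted p = 0.398). The call was lost without control replicate 1 (0.53) or without tbx20-overexpressing replicate 3 (0.54), and it was kept in the other 4 fits with 1 library left out. With the replicate block it was 0.69 ± 0.16, with an edgeR adjusted p of 0.0836 (range over all alternatives 0.0296 to 0.713).

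The paralog adam8b was not called. It was at 77.2, 63.4 and 68.9 CPM in control and 99.4, 63.6 and 67.7 CPM in tbx20-overexpressing replicates, with a log2 fold change of 0.14 ± 0.22 (SE, edgeR adjusted p = 0.93). Only replicate 1 was higher in the tbx20-overexpressing library by more than 0.1 on the log2 scale. The ratio of adam8a to adam8b, per kilobase, was 0.828, 1.39 and 1.42 in the control and 1.20, 1.95 and 2.31 in the tbx20-overexpressing replicates. It was higher in 3 of 3 pairs with overlapping groups.

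The sheddases adam10 and adam17 act on many membrane proteins, including Notch receptors and growth factor precursors. adam10a, the most abundant ADAM per length, was at 217, 204 and 187 CPM in control and 223, 219.7 and 230.1 CPM in tbx20-overexpressing replicates. The groups were apart, but the difference was small (log2 fold change 0.15 ± 0.18, SE) and was not called except with total-count scaling (0.50). adam17b was at 9.80, 0.979 and 2.69 CPM in control and 14.5, 1.86 and 5.78 CPM in tbx20-overexpressing replicates. The replicates of each group spanned a wide range in the same order, and the lowest library had 13 counts. The unpaired log2 fold change was 0.72 ± 0.87 (SE), and with the replicate block adam17b was called at 0.84 ± 0.25 with an edgeR adjusted p of 0.139 (range over all alternatives 0.0693 to 0.989). Without tbx20-overexpressing replicate 1 the unpaired value was -0.22. Its paralog adam17a had a log2 fold change of -0.03 ± 0.29 (SE).

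The other tested ADAMs were chosen for mention after their values were seen. adam9, a widely expressed sheddase, was higher in each pair by a similar amount (0.45, 0.31 and 0.45 on the log2 scale) and was not called in either fit. adam12, which is known for its expression in growing and repairing mesenchyme, had the most negative log2 fold change of the 58 genes (-0.65 ± 0.39, SE). It was at 6.18, 2.71 and 4.70 CPM in control and 3.57, 2.59 and 2.48 CPM in tbx20-overexpressing replicates. These groups overlapped, and adam12 was called only when control replicate 2 was left out (-0.93). adam11, which has no active site in mammals, was at 0.516 to 1.29 CPM with at most 18 counts in a library. The other 6 ADAMs (adam10b, adam15, adam19a, adam19b, adam23a and adam28) had log2 fold changes from -0.42 to 0.20 and were not called.

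The ADAMTSs varied widely among replicates. Their median coefficient of variation among control libraries was 51.2%, compared with 22.8% for all tested genes. Among tbx20-overexpressing libraries it was 33.4%, compared with 24.3% for all tested genes, 45.6% for the MMPs and 35.1% for the cathepsins. adamts8a, adamts15a and adamts1, which belong to the group of proteoglycan-cutting ADAMTSs, were the most abundant per length. adamts8a was at 58.1, 17.5 and 29.8 CPM in control and 44.7, 26.3 and 32.7 CPM in tbx20-overexpressing replicates. The log2 fold change of -0.02 ± 0.41 (SE) was near 0, and its sign was turned by the replicate block (0.11), by total-count scaling (0.28) and by leaving out control replicate 1 (0.55). adamts15a was at 48.2, 13.2 and 35.8 CPM in control and 38.9, 31.5 and 48.9 CPM in tbx20-overexpressing replicates, with a log2 fold change of 0.30 ± 0.42 (SE). Neither gene was called, and both were highest in replicate 1 and lowest in replicate 2 of the control group.

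The pairs of adamts1 went in opposite directions. It was at 67.8, 15.1 and 24.1 CPM in control and 33.2, 62.8 and 15.0 CPM in tbx20-overexpressing replicates. The difference within pairs was -1.03, 2.05 and -0.68 on the log2 scale, and the log2 fold change was 0.06 ± 0.62 (SE). Leaving out 1 library moved it from -0.57 to 0.92. adamts1 and adamts5 are neighbours in GRCz12tu, as are adamts8a and adamts15a.

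adamts3, a procollagen N-proteinase that in mammals also processes VEGFC, was at 6.59, 4.67 and 2.29 CPM in control and 13.5, 6.17 and 4.66 CPM in tbx20-overexpressing replicates. The replicates had the same order in both groups, and each tbx20-overexpressing library was higher than the control of its number, with overlapping groups. The unpaired log2 fold change was 0.85 ± 0.50 (SE, edgeR adjusted p = 0.7), and with total-count scaling it was 1.17 and called. With the replicate block adamts3 was called at 0.82 ± 0.24, with an edgeR adjusted p of 0.14 (range over all alternatives 0.0561 to 0.929). adamts2, of the same procollagen-processing kind, had a log2 fold change of 0.17 ± 0.41 (SE).

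The remaining ADAMTSs were not called. adamts12 (8.48, 7.68 and 9.17 CPM in control against 11.4, 10.4 and 10.6 CPM) was higher without overlap, with a log2 fold change of 0.35 ± 0.22 (SE). adamtsl5, a member without a protease domain, was lower without overlap (24.0, 19.0 and 27.1 CPM in control against 18.9, 18.3 and 17.8 CPM), at -0.35 ± 0.21 (SE). The value was -0.03 with total-count scaling, and the groups overlapped in FPKM. adamts12 was called with that scaling. These genes were named because their groups did not overlap, after their values were seen. The symbol adamts15b was carried by a pair of genes. The gene ENSDARG00000033544 had a log2 fold change of 0.14 ± 0.35 (SE). The gene ENSDARG00000058252, which the gene name table lists as ADAMTS8, had one of -0.09 ± 0.55 (SE). The others (adamtsl7, adamts10, adamtsl2, adamts9, adamtsl3, adamts5 and adamts6) had log2 fold changes from -0.61 (adamts5) to 0.58 (adamtsl3).

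The ordering of replicates differed between families. Of the 16 tested ADAMTSs, 7 were highest in replicate 1 of both groups and 8 were lowest in replicate 2 of both groups. Of the 14 ADAMs, 6 were highest in replicate 1 of both groups. Of the 13 cathepsins, 7 were highest in replicate 3 and 8 lowest in replicate 1 of both groups. For all tested genes these shares were between 16.3% and 18.0% for any replicate. Replicate 1 differed from the others in the number of hearts pooled, and the part of the pool size was not tested.

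**Figure D4:**
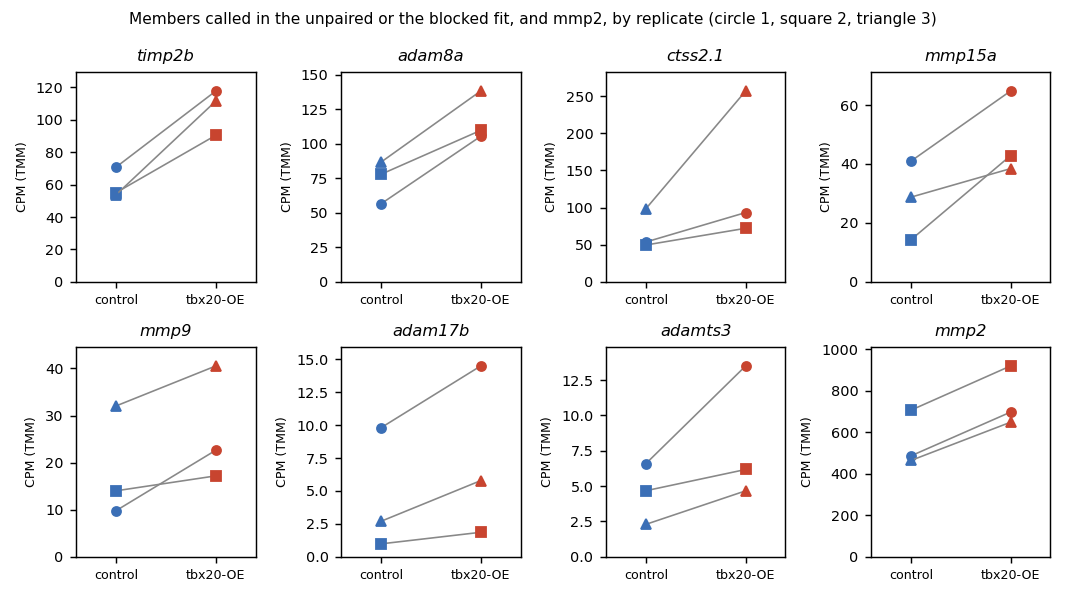
CPM (y axis) of the 7 genes called in the unpaired or the blocked fit, and of mmp2, in control and tbx20-overexpressing (tbx20-OE) libraries, with a line for each replicate number (circle 1, square 2, triangle 3). Every line goes up, while only timp2b and adam8a have groups that do not overlap.

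The cathepsins were abundant. Per length, ctsla led with 21.8% of the cathepsin CPM per kilobase, followed by ctsd with 17.4% and ctsk with 13.1%. ctsla encodes a cathepsin L, a cysteine protease of the lysosome, and was at 316, 459 and 381 CPM in control and 319.6, 483 and 427 CPM in tbx20-overexpressing replicates. ctsla was not called, with a log2 fold change of 0.09 ± 0.24 (SE, n = 3 against 3, edgeR adjusted p = 0.972). The values within each pair differed by 0.02, 0.07 and 0.16 on the log2 scale, far less than those between replicates.

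ctsd, the aspartic protease cathepsin D, was at 211, 309.9 and 342 CPM in control and 270.3, 275 and 507 CPM in tbx20-overexpressing replicates. Replicate 2 was lower in the tbx20-overexpressing library than in control, and the log2 fold change was 0.28 ± 0.31 (SE, edgeR adjusted p = 0.894). Without tbx20-overexpressing replicate 3 it was -0.08. ctsk, the collagen-degrading cathepsin K of osteoclasts, was at 119, 179.8 and 205 CPM in control and 134, 209 and 279 CPM in tbx20-overexpressing replicates. It was higher in 3 of 3 pairs with overlapping groups and was not called (0.30 ± 0.32, SE, edgeR adjusted p = 0.88).

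Of the cathepsin S genes, ctss2.1 and ctss2.2 lie next to ctsk in GRCz12tu, in the order ctsk, ctss2.1 and ctss2.2. Cathepsin S trims the invariant chain in antigen-presenting cells and stays active at neutral pH. ctss2.1 (ENSDARG00000074656) was at 53.6, 49.6 and 98.5 CPM in control and 93.2, 72.1 and 257 CPM in tbx20-overexpressing replicates. tbx20-overexpressing replicate 3 was far above the others, and the other values overlapped between groups. The log2 fold change was the largest of the 58 genes, 1.07 ± 0.49 (SE, edgeR adjusted p = 0.583), and was not called. DESeq2 (1.06), the fit with no filter (1.06) and total-count scaling (1.45) called it. The unpaired value was 0.29 without tbx20-overexpressing replicate 3, and it was called without control replicate 3 (1.46), tbx20-overexpressing replicate 1 (1.29) or tbx20-overexpressing replicate 2 (1.38). With the replicate block ctss2.1 was called at 0.91 ± 0.20, with an edgeR adjusted p of 0.0737 (range over all alternatives 0.0388 to 0.991).

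ctss2.2 was chosen for comparison after its values were seen. It was at 50.7, 79.5 and 103 CPM in control and 64.1, 93.9 and 145 CPM in tbx20-overexpressing replicates. Its log2 fold change was 0.38 ± 0.35 (SE) and it was not called in either fit. The ratio of ctss2.1 to ctss2.2, per kilobase, was 1.08, 0.636 and 0.977 in the control and 1.48, 0.783 and 1.80 in the tbx20-overexpressing replicates. It was higher in each of the 3 pairs, and the groups overlapped. Reads shared by these paralogs could have been split between them in the authors' counting.

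**Figure D5:**
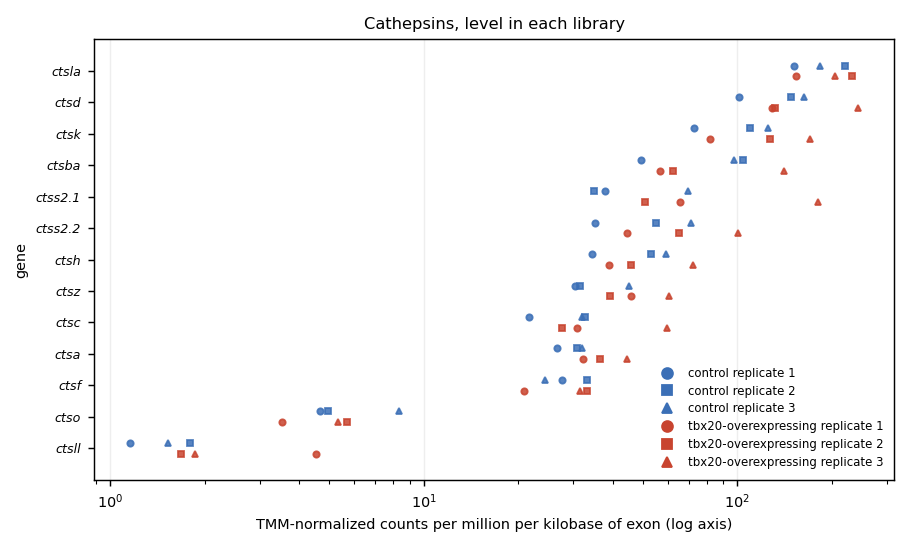
TMM-normalized CPM per kilobase of exon (x axis, log scale) of the 13 tested cathepsins (y axis) in each library. Blue marks are control and red marks are tbx20-overexpressing, with circles, squares and triangles for replicates 1, 2 and 3. The red triangle, tbx20-overexpressing replicate 3, is the highest mark for most genes, and the red marks of ctsa alone are all to the right of the blue ones.

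The other cathepsins were not called in either fit, although ctsa, ctsz and ctsll were with total-count scaling, and those named here were chosen after their values were seen. ctsz, a carboxypeptidase, was at 68.9, 71.6 and 103 CPM in control and 104, 88.9 and 138 CPM in tbx20-overexpressing replicates (log2 fold change 0.44 ± 0.24, SE). ctsa, the serine carboxypeptidase that also protects lysosomal glycosidases, was at 55.8, 64.9 and 67.0 CPM in control and 67.6, 76.7 and 93.5 CPM in tbx20-overexpressing replicates. It was the only cathepsin whose groups did not overlap, with a log2 fold change of 0.34 ± 0.19 (SE). ctsba, a cathepsin B, was at 117, 247 and 231 CPM in control and 134, 149 and 335 CPM in tbx20-overexpressing replicates. Its pairs went in different directions (0.19, -0.74 and 0.53), and its log2 fold change was 0.05 ± 0.41 (SE). ctsc, ctsf, ctsh, ctsll and ctso had log2 fold changes from -0.30 to 0.84, and ctso was the only cathepsin with a lower mean in the tbx20-overexpressing group. The median over the 13 cathepsins was 0.02 without tbx20-overexpressing replicate 3 and 0.12 without control replicate 1.

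Not tested were 19 genes with too few counts (at most 29 in any library). They were mmp16b, mmp17b, mmp19, mmp20a, mmp20b, mmp23bb, mmp24, mmp25a, mmp30, timp4.1, adam22, adamts13, adamts17, adamts18, ctsbb, ctsl.1, ctss1 and both genes named ctslb. The ctslb genes had no count. The only one of the 19 called when no filter was applied was mmp24, with no count in control and 3, 0 and 4 counts in tbx20-overexpressing replicates. mmp20a and mmp20b, the enamel proteases of mammals, had 1 count each in all libraries together.

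MMPs are activated by the plasmin system and by convertases, so partner genes were examined, from a list chosen with earlier results known. The list also held other secreted or cell-surface proteases, among them htra1b, and the inhibitor reck. Of the 22 listed genes found, 14 were tested, and their median log2 fold change was 0.39, against 0.04 for all genes. Of these 14, 2 were called higher, against 3.27% of all genes. plat, the tissue plasminogen activator, was called at 1.12 ± 0.34 (SE, edgeR adjusted p = 0.356), with 13.3, 5.65 and 11.1 CPM in control and 26.2, 16.5 and 22.4 CPM in tbx20-overexpressing replicates. htra1b, a secreted serine protease, was called at 0.80 ± 0.20 (SE, edgeR adjusted p = 0.296), with 149, 185 and 178 CPM in control and 338, 272 and 279 CPM in tbx20-overexpressing replicates. The groups did not overlap for either gene. serpine2, a serpin that inhibits thrombin and plasminogen activators, was not called in the unpaired fit. It was called at 0.70 ± 0.15 (SE) with the replicate block, which called 6.05% of all genes higher. Plasminogen itself (plg) had 2 counts in all libraries together. furina, which removes propeptides, its paralog furinb and the convertase pcsk5b had log2 fold changes of -0.16, 0.21 and -0.39. The membrane-anchored MMP inhibitor reck was at 0.13, and bmp1a, higher without overlap, was at 0.42. None of these genes was called in either fit.

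Partners of the cathepsins were examined as well. Of 10 tested cystatins, serpins and activators none was called in either fit, and the median log2 fold change was 0.23. lgmn, the legumain that processes several cathepsins, was at 212, 269 and 383 CPM in control and 260, 267 and 591 CPM in tbx20-overexpressing replicates, with the same high replicate 3 as ctsd. Its log2 fold change of 0.37 was not called. Of 27 other lysosome genes, 22 had a higher mean in the tbx20-overexpressing group, against 54.3% of all genes. Their median log2 fold change was 0.15, against 0.04 for all genes. None was called in the unpaired fit, and asah1a and mcoln1a were called higher with the replicate block. Of all genes, 3.27% were called higher and 5.56% lower in the unpaired fit, and 6.05% higher and 8.06% lower with the block.

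Markers of macrophages, which are rich in cathepsins, were examined next, again from a list chosen with earlier results known. All 10 had a higher mean in the tbx20-overexpressing group (median log2 fold change 0.52), against 54.3% of all genes. Of them 1 was called (spi1b, a transcription factor of myeloid cells, 0.62 ± 0.25, SE, edgeR adjusted p = 0.491), against 3.27% of all genes called higher. With the replicate block 5 were called higher, against 6.05% of all genes. The call of spi1b was kept in 2 of the 6 fits with 1 library left out. The 10 markers summed to 855, 1120 and 852 CPM in control and 932, 1098 and 1488 CPM in tbx20-overexpressing replicates. As for the cathepsin sum, tbx20-overexpressing replicate 3 was the highest library. In control the order of the 2 sums differed, as replicate 3 had the highest cathepsin sum (1824 CPM) and the lowest macrophage sum (852 CPM). The macrophage sum was led by cd74a, at 504, 618 and 369 CPM in control and 417, 598 and 610 CPM in tbx20-overexpressing replicates. Like the sum, cd74a was lowest in replicate 3 of the control group. mpeg1.1, a defining macrophage gene, was at 53.0, 97.6 and 98.3 CPM in control and 78.7, 108 and 169 CPM in tbx20-overexpressing replicates. Unlike cd74a in control, mpeg1.1 was highest in replicate 3 of both groups, as was the cathepsin sum. The other markers were mixed. In control, c1qa, irf8 and mfap4 were also highest in replicate 3. By contrast, c1qb, c1qc, marco and spi1b were, like cd74a, highest in control replicate 2, and csf1ra was highest in control replicate 1. The part of macrophage RNA in the levels of the cathepsins and of adam8a was not tested.

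Levels of markers of other cell types were also compared between the groups. Of the 10 epicardium and fibroblast markers, 9 had a higher mean in the tbx20-overexpressing group (median 0.49), and tcf21 and wt1b were called higher. In the paired fit wt1b, fn1b and postnb were called higher and tcf21 was not. The sums of these 10 markers did not overlap, with 8495 to 10601 CPM in control and 12247 to 14985 CPM in tbx20-overexpressing libraries. These sums were led by fn1b, col1a1a, col1a2 and postnb. aldh1a2 is counted among these markers, although the paper uses it as a marker of activated endocardium. Of the 10 cardiomyocyte markers, 9 had a lower mean (median -0.50) and 3 were called lower (actc1a, cmlc1 and atp2a2a), with myl7 and tnnt2a added by the replicate block. Of the 8 endothelial and endocardial markers, 5 had a lower mean (median -0.22), and cdh5 and pecam1 were called lower, with flt1 added by the replicate block. Of all genes, 54.3% had a higher mean, 3.27% were called higher and 5.56% were called lower. With the replicate block, 6.05% of all genes were called higher and 8.06% lower. With total-count scaling the median of the endothelial and endocardial markers changed sign, to 0.12. The medians were then -0.15 for the cardiomyocyte, 0.84 for the epicardium and fibroblast and 0.91 for the macrophage markers, against 0.38 for all genes. The part of the marker differences in the levels of mmp2, the TIMPs and the other matrix genes was not tested.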

How the data were processed

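RNA-seq of 6 libraries was analysed (3 control, 3 tbx20-overexpressing). The authors deposited raw counts per gene and FPKM values, made with Trimmomatic 0.30 and HISAT2 2.0.1 on GRCz10 per the submitters' processing notes, which also name DESeq. The counting tool and the handling of strand are not given in the sources used here. FPKM equalled the count divided by the exonic length and the library total within 0.011 for all 190206 values. The exonic length of each gene was used as deposited by the authors.

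Counts were filtered (filterByExpr), normalized (TMM) and tested with edgeR 4.0.16 (quasi-likelihood F test, two-sided, R 4.3.3), with Benjamini-Hochberg adjustment over 15686 genes. The standard error is the log2 fold change divided by the square root of F. TMM factors were 0.920, 0.748 and 1.01 in control replicates 1, 2 and 3. They were 1.02, 1.08 and 1.31 in the tbx20-overexpressing replicates, so the factors did not overlap between the groups. Alternatives were DESeq2 1.42.0, limma 3.58.1 on log2(FPKM + 1) or log2(FPKM + 0.1), RLE factors, total-count scaling, no filter, at least 10 counts in every library, the replicate block, and leaving out each library. Methods were also run on simulated counts. The changes put into these counts were larger than most of those seen here, so they do not bear on calls of small changes.

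Replicate numbers were checked for pairing. Deviations from the group means correlated across all tested genes at 0.453, 0.409 and 0.469 for replicates 1, 2 and 3. Over all genes the numbers thus pair the libraries, as a property of the data and not of the labels. Across the tested members alone these correlations were 0.596, 0.213 and 0.648. For replicate 2 this was close to the value of control replicate 2 with tbx20-overexpressing replicate 3 (0.193), so its pairing was weak among the members. Replicates are pools of different fish, so p-values of the unpaired fit measure the spread between pools. With the replicate block they measure the spread of the differences within pairs.

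Differences within pairs are of log2(CPM + 0.1). Genes were given in full when called in either fit, when among the 3 of their family with the highest mean FPKM, or when the study names them (ctss2.1). The members, partner lists and marker lists were chosen with earlier results of these data known, and 1 gene of the partner lists is not reported here. Gene names were found for 75 of the 77 genes, and 71 of 75 symbols in the GRCz12tu gene table, used for neighbours only.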

Additional observations from a re-analysis of the deposited data

How the results depend on the processing

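The count of called genes over all genes (1385) was 2213 with the replicate block, 2100 with total-count scaling and 3999 with both. Total-count scaling called 1843 genes higher and 257 lower, against 513 and 872 in the main analysis, and moved the median of all genes from 0.04 to 0.38. The 2 called metalloproteases and TIMPs became 6 with the replicate block, 10 with total-count scaling, 18 with both, 3 with DESeq2 (mmp15a added), 4 with no filter (including mmp24, with 7 counts in all), 8 with limma on log2(FPKM + 1), 7 with limma on log2(FPKM + 0.1) and 1 to 4 with 1 library left out. The 0 called cathepsins became 1 with the replicate block, 1 with DESeq2, 4 with total-count scaling, 8 with total-count scaling and the block, 1 with no filter, 3 with either limma fit and 0 to 2 with 1 library left out. The causes were not tested. timp2b was called under every alternative, and adam8a under all but those without control replicate 1 or tbx20-overexpressing replicate 3.

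Signs turned for adamts8a (main -0.02), at 0.11 with the replicate block, 0.28 with total-count scaling, 0.46 with both, 0.41 and 0.46 with limma on log2(FPKM + 1) and log2(FPKM + 0.1), and -0.36 to 0.55 with 1 library left out. They turned for timp4.3 (main -0.21), at 0.13 with total-count scaling, 0.18 with the replicate block added, 0.14 and 0.17 with limma, and -0.36 to 0.076 with 1 library left out. With 1 library left out, the log2 fold change ranged from -0.092 to 0.26 for adam8b, -0.22 to 1.99 for adam17b, -0.087 to 0.70 for adamts15a, -0.57 to 0.92 for adamts1, -0.049 to 0.24 for ctsla and -0.083 to 0.44 for ctsd. The median of the ADAMs was -0.02 without tbx20-overexpressing replicate 1 (main 0.14), and that of the ADAMTSs was -0.084 without control replicate 2 and 0.61 without control replicate 1 (main 0.19). Of the 300 comparisons of the 20 named genes under 15 alternatives, 230 gave the same direction and call, 46 added a call, 2 lost one and 22 changed sign. Few counts lay behind several tested genes. Counts in a library were 3 to 23 for adamts6, 5 to 28 for mmp17a and 6 to 17 for mmp11a. They were 7 to 36 for adamts5, 8 to 18 for adam11 and 9 to 32 for mmp28. Low minimum counts were also found for adamtsl3 (8 to 77), mmp11b (11 to 65) and timp4.2 (15 to 46).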
